A study of Mus musculus with 12 samples.

Results

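The genes described here carry endosomal Toll-like receptor sensing, a set of 10 named genes: the receptors Tlr7 and Tlr9, the proteins that fold, move or assist them (Unc93b1, Cnpy3, Slc15a4 and Pacsin1) and the signalling proteins behind them (Myd88, Irak4, Irak1 and Traf6). They were listed by name and role and not by a cutoff on measured values, but with earlier results of these data known. The study had already named Tlr7 among the genes with their highest expression in pDC. Of the 10, 9 were found among the 21754 genes of the bulk RNA table, and Myd88, the adaptor that links these receptors to the IRAK kinases, was not analysed here. The 9 were followed through 4 populations sorted by flow cytometry from bone marrow of adult wild type C57BL/6 mice. There was no treatment and no transgene in any group. The study used mice of both sexes, and the sex of those behind these libraries is not given. All 4 populations were taken from cells depleted of mature lineages and gated as CD11c+. The pre-cDC were Siglec-H-, the lo-lo cells were Siglec-H+ CCR9lo B220lo, the lo-hi cells were Siglec-H+ CCR9lo B220hi, and the pDC were Siglec-H+ CCR9hi B220hi. Pre-cDC are precursors of conventional dendritic cells (cDC), and lo-lo and lo-hi cells are Siglec-H+ precursor fractions. Each population had 3 libraries, and all were sorted from 3 individual mice, so that libraries of different populations share mice. The labels do not say which, so the test took no account of the mouse, and a fit with the replicate number as a block is given where it changes a call.

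The population of each library did not come from its deposited label. The study's source data list transcription factor values for each sample under its population name, and within each of those samples the order of 28 transcription factors was compared with their order in each deposited well. All 12 samples had 1 well with 0 of 378 gene pairs in another order, while the next well had at least 7. In 8 of the 12 wells the matched population was not the one on the label, and in 4 it was. None of the 9 genes was among the 28 ranked. Populations below are the matched ones, and results under the deposited labels are given beside them, since every difference reported here rests on that match.

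Plasmacytoid dendritic cells (pDC) are known for their large output of type I interferon when nucleic acids reach their endosomes. TLR7 recognises single-stranded RNA and TLR9 recognises DNA with unmethylated CpG, and both leave the endoplasmic reticulum only in company of UNC93B1. In the endosome they recruit MYD88, which assembles IRAK4, IRAK1 and the ubiquitin ligase TRAF6, and the signal ends in NF-κB and the interferon regulatory factors. Conventional dendritic cells draw on a wider set of receptors, many of them on the cell surface.

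Total counts ran from 1801463 to 5995971 per library, so that a count of 3, used as the detection floor, was worth 0.5 to 1.665 CPM (counts in 1000000 counts of the library). Floors cover counting error only. Between the end populations, 5 of 5 sort gate and pDC markers were higher in pDC than in pre-cDC, among them Siglech and Ccr9. Their summed level was 1051 to 1535 CPM in pre-cDC, 3592 to 3918 in lo-lo, 6034 to 6491 in lo-hi and 6995 to 7503 in pDC. Not every marker rose at each step. Ly6d was 2523, 1928 and 2740 CPM in lo-hi and 2262, 1673 and 2165 in pDC. Of 5 cDC and pre-cDC markers, 3 were lower in pDC than in pre-cDC. Cd209a was lower and Clec9a higher in pDC than in pre-cDC, with log2 fold changes of -0.83 and 0.52. Neither passed in that comparison (edgeR, adjusted p = 0.015 and 0.019). Over all populations together, Cd209a differed (edgeR, adjusted p = 3.8e-05) and Clec9a did not (0.028). Cd209a was 362, 312 and 593 CPM in pre-cDC, and 83.3, 88.0 and 137 in lo-lo. It was 197, 170 and 137 CPM in lo-hi, and 274, 249 and 189 in pDC. RNA of other cell types was present in every library. The summed level of 6 granulocyte and monocyte markers lay between 3850 and 10140 CPM in pre-cDC, 4747 and 15678 in lo-lo, 8615 and 18328 in lo-hi, and 2863 and 5850 in pDC, and 0 of the 6 differed between populations. The 6 erythroid and platelet markers summed to 1807 to 6958 CPM over all libraries, with 0 of 6 differing. B cell markers summed to 55.8 to 128 CPM, and 1 of 6, Cd79b, differed (adjusted p = 0.0017), being highest in lo-hi replicate 1 at 102 CPM. T and NK cell markers reached at most 7.90 CPM and macrophage markers at most 23.2 CPM. The part of this RNA in the results below was not tested, and in bulk samples fewer cells of a type and less RNA per cell cannot be told apart.

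Across the 4 populations, 3 of the 9 genes differed by edgeR's quasi-likelihood test at an adjusted p of 0.01: Tlr7, Unc93b1 and Pacsin1. Of all 15293 genes tested, 19.9% did. All 3 were higher in pDC than in pre-cDC, and their means increased from pre-cDC over lo-lo to lo-hi and on to pDC. The other 6 genes did not pass the test. Grouped by the deposited labels, 0 of the 9 differed, with a smallest adjusted p of 0.9999, and so did 0 of all genes by edgeR (background 0%). At an unadjusted p under 0.05 the labels gave 166 genes, none of the 9 among them, and DESeq2 called 5 genes, with 0 of the 9.

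**Figure D1:**
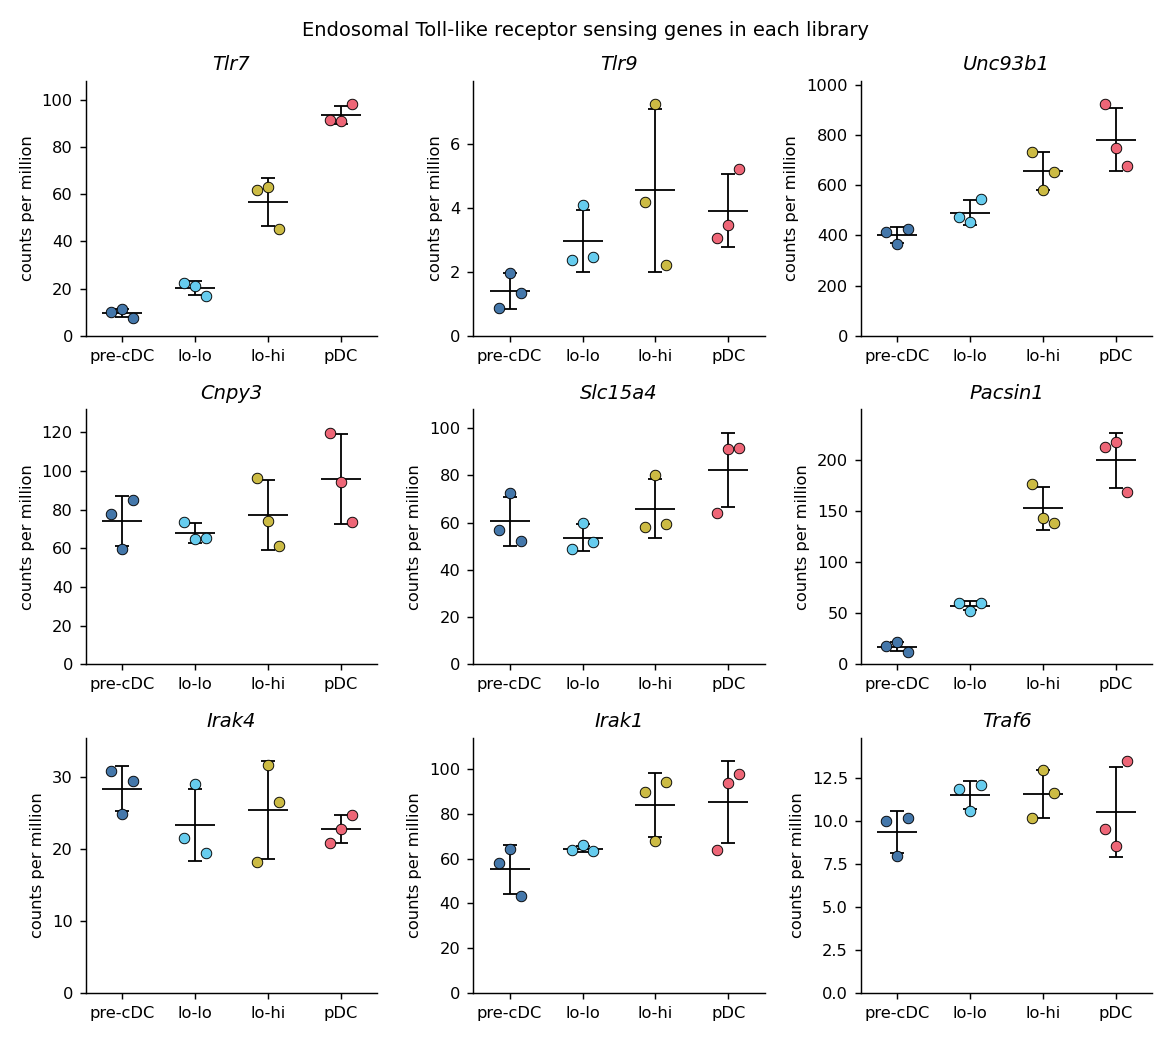
Level of each of the 9 genes in CPM (vertical axes, each starting at 0) in the 4 matched populations, with 1 point per library, the mean as a horizontal bar and the SD as whiskers (n = 3). The means of Tlr7, Unc93b1 and Pacsin1 climb from left to right, and Tlr9 stays below 8 CPM. Points of lo-hi and pDC overlap for every gene except Tlr7.

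Tlr7 lies on chromosome X at positions 167304929 to 167330558 of GRCm38, on the minus strand. Its level was 9.95, 11.4 and 7.77 CPM in the pre-cDC libraries, 22.4, 21.2 and 17.0 in lo-lo, 61.8, 63.1 and 45.2 in lo-hi, and 91.5, 91.0 and 98.1 in pDC. No 2 populations overlapped. The means were 9.71 ± 1.83 CPM in pre-cDC, 20.2 ± 2.86 in lo-lo, 56.7 ± 10 in lo-hi and 93.5 ± 3.96 in pDC (SD, n = 3). The pDC level was 9.70 times that of pre-cDC, a log2 fold change of 3.28 ± 0.20 (SE, adjusted p = 8.4e-12).

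The rise in Tlr7 was spread over the 3 steps between neighbouring populations. From pre-cDC to lo-lo the log2 fold change was 1.06 ± 0.21 (adjusted p = 0.0022). From lo-lo to lo-hi it was 1.51 ± 0.18 (adjusted p = 7.6e-06), the largest of the 3. From lo-hi to pDC the level was 1.64 times higher, a log2 fold change of 0.71 ± 0.17, which did not pass the test (adjusted p = 0.019). The call of the first step was lost without pre-cDC replicate 1 (adjusted p = 0.016), pre-cDC replicate 3 (0.027), lo-lo replicate 1 (0.018) or lo-lo replicate 2 (0.011), and the last step passed without pre-cDC replicate 2 (0.0095). With all 12 libraries the last step also passed with the replicate number as a block (log2 fold change 0.72, adjusted p = 0.0027) and with no filter on low counts (0.0053).

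Tlr9, on chromosome 9 at positions 106222598 to 106226883 of the plus strand, was measured close to the floor. It had 3, 4 and 4 counts in the pre-cDC libraries, 8, 12 and 11 in lo-lo, 19, 14 and 4 in lo-hi, and 18, 11 and 12 in pDC. As levels these were 0.878, 1.98 and 1.35 CPM in pre-cDC, 2.36, 4.10 and 2.46 in lo-lo, 4.20, 7.24 and 2.20 in lo-hi, and 3.07, 3.47 and 5.21 in pDC. The pre-cDC libraries were the 3 lowest of the 12, and the other 3 populations overlapped.

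The difference of Tlr9 over the 4 populations did not pass the test (adjusted p = 0.050). Its log2 fold change was 1.47 ± 0.50 between pDC and pre-cDC (adjusted p = 0.027) and 1.74 ± 0.51 between lo-hi and pre-cDC (adjusted p = 0.014). The latter passed with the replicate block (adjusted p = 0.0070), with no filter on low counts (0.0088) and without lo-hi replicate 3, the shallowest library (0.0067). Between pDC and lo-hi it was -0.27 ± 0.40 (adjusted p = 0.90). The pre-cDC value rests on 11 counts in all.

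Promoter sequence is shown for Tlr9, the receptor with the low count, for Pacsin1, which rose with Tlr7, and for a pair of pathway genes that also rose, Tlr12 and Pld4 (described below). The stretches come from RefSeq on GRCm38.p6 and run from 250 bases before to 50 after an annotated start. Among the 9 genes, 7 had an entry, and Tlr7 and Unc93b1 had none. The positions are chr9:106222348-106222647 on the plus strand for Tlr9, chr17:27684989-27685288 on the plus strand for Pacsin1, chr4:128618570-128618869 on the minus strand for Tlr12 and chr12:112760405-112760704 on the plus strand for Pld4. Capitals mark the letters of 5 motifs. An E-box, a site type bound by E proteins, was searched as CACCTG, which reads CAGGTG on the other strand, and in its palindromic form as CAGCTG. A site type of the ETS family was searched as AGGAAG, whose reverse reads CTTCCT. An interferon-stimulated response element was searched as GAAANNGAAA with the reverse TTTCNNTTTC, and the last motif was CCAAT with its reverse ATTGG.
Tlr9: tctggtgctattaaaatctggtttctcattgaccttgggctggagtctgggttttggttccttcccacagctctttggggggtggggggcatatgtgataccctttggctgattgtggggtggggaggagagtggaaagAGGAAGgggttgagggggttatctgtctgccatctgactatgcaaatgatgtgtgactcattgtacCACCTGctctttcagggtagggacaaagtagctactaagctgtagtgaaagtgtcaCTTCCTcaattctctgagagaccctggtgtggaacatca
Pacsin1: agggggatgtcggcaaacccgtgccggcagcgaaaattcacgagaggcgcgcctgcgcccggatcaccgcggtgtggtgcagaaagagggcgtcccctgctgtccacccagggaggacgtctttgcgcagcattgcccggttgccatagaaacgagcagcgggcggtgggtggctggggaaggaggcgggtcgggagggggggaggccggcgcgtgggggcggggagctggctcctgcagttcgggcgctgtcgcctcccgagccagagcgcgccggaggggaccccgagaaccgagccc
Tlr12: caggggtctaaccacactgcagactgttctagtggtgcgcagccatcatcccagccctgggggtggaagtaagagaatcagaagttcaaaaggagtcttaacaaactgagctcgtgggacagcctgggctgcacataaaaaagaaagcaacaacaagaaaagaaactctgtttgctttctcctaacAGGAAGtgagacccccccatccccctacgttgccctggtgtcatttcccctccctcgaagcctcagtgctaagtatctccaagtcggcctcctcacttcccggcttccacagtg
Pld4: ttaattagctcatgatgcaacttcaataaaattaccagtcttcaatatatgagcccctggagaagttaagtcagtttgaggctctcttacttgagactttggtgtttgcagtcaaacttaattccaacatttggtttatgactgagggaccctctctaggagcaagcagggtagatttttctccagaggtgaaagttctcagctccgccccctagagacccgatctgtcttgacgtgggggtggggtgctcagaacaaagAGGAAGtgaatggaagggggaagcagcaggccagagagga

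The motifs were searched on both strands, and matches of different motifs did not overlap in these 4 stretches. Tlr9 held 1 CACCTG, starting 45 bases before the annotated start, and 2 matches to the ETS-type letters. Tlr12 and Pld4 held 1 ETS-type match each. Pacsin1 held none of the 5 motifs, and its stretch was 71.7% G or C, against 49.7% for Tlr9, 52.3% for Tlr12 and 46.7% for Pld4. The Pacsin1 stretch lies around a start inside the gene, which begins upstream at position 27655509. Sequence at that first position was not searched. Of 32544 RefSeq promoters of the same length, 20.3% held the first E-box, 16.4% the palindromic E-box, 35.1% the ETS-type letters, 3.45% the interferon-type letters and 37.4% the CCAAT letters. A match describes letters and not a bound site.

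Unc93b1, the transmembrane escort of the nucleic acid receptors, lies on chromosome 19 at positions 3935186 to 3949340 of the plus strand. It was measured at 415, 367 and 426 CPM in pre-cDC, 474, 452 and 546 in lo-lo, 731, 581 and 652 in lo-hi, and 922, 748 and 674 in pDC. The populations were apart from one another except lo-hi and pDC, which overlapped. The mean was 402 ± 31.3 CPM in pre-cDC and 781 ± 127 in pDC (SD, n = 3).

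Between pre-cDC and pDC, Unc93b1 rose 1.94-fold, a log2 fold change of 0.96 ± 0.15 (adjusted p = 1.4e-05). None of its 3 steps passed the test, with log2 fold changes of 0.28 ± 0.15 for lo-lo against pre-cDC, 0.42 ± 0.15 for lo-hi against lo-lo and 0.25 ± 0.15 for pDC against lo-hi (adjusted p = 0.33, 0.084 and 0.56). Over wider spans it passed, at 0.70 ± 0.15 for lo-hi against pre-cDC (adjusted p = 0.00099) and 0.67 ± 0.15 for pDC against lo-lo (adjusted p = 0.0014). The first of these was lost without lo-hi replicate 1 (adjusted p = 0.018), and the second without lo-lo replicate 1 (0.020), lo-lo replicate 2 (0.012) or pDC replicate 1 (0.023).

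Pacsin1 encodes an adaptor protein of membrane bending and vesicle transport and is known in pDC for its part in the interferon response to TLR7 and TLR9 ligands. The gene lies on chromosome 17 at positions 27655509 to 27711482 of the plus strand. Its level was 17.9, 21.8 and 12.5 CPM in pre-cDC, 59.7, 52.2 and 60.1 in lo-lo, 176, 143 and 138 in lo-hi, and 213, 217 and 168 in pDC. The pre-cDC and lo-lo libraries were each apart from all others, while lo-hi and pDC overlapped, the highest lo-hi library standing above the lowest pDC library.

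The mean of Pacsin1 went from 17.4 ± 4.68 CPM in pre-cDC to 199 ± 27.2 in pDC (SD, n = 3), 11.6-fold, with a log2 fold change of 3.54 ± 0.20 (adjusted p = 4.0e-12). The larger steps came first, at 1.74 ± 0.20 from pre-cDC to lo-lo (adjusted p = 2.1e-06) and 1.41 ± 0.18 from lo-lo to lo-hi (adjusted p = 8.8e-06). From lo-hi to pDC the log2 fold change was 0.38 ± 0.17 and did not pass (adjusted p = 0.36). Both calls held with each library left out in turn.

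Slc15a4, an endolysosomal transporter of histidine and oligopeptides, lies on chromosome 5 at positions 127595664 to 127632897 of the minus strand. It was measured at 56.8, 72.4 and 52.4 CPM in pre-cDC, 49.0, 60.1 and 52.0 in lo-lo, 58.3, 80.2 and 59.5 in lo-hi, and 64.0, 91.3 and 91.5 in pDC. Of the 3 pDC libraries, 2 were the highest of all, and the third lay among those of pre-cDC and lo-hi. Over the 4 populations the adjusted p was 0.059. Its log2 fold change was 0.61 ± 0.18 between pDC and lo-lo (adjusted p = 0.017) and 0.44 ± 0.18 between pDC and pre-cDC (adjusted p = 0.069). The former passed with the replicate block (adjusted p = 0.0028), with no filter on low counts (0.0083), and without pDC replicate 1 (0.0041) or pre-cDC replicate 2 (0.0083).

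Cnpy3, a chaperone of the endoplasmic reticulum that several Toll-like receptors need to fold, lies on chromosome 17 at positions 46735705 to 46752214 of the minus strand. Its level was 77.6, 59.5 and 84.8 CPM in pre-cDC, 73.8, 64.8 and 65.2 in lo-lo, 96.5, 74.0 and 61.2 in lo-hi, and 120, 94.4 and 73.3 in pDC. All 4 populations overlapped at least 1 other. The adjusted p over the 4 was 0.18, and the log2 fold change between pDC and pre-cDC was 0.38 ± 0.19 (adjusted p = 0.14).

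Irak4, the kinase that MYD88 recruits first, lies on chromosome 15 at positions 94543643 to 94581815 of the plus strand. It was measured at 30.7, 24.8 and 29.4 CPM in pre-cDC, 21.6, 29.0 and 19.4 in lo-lo, 18.1, 31.6 and 26.5 in lo-hi, and 20.8, 22.7 and 24.7 in pDC. It was the 1 gene of the 9 with its highest mean in pre-cDC, 28.3 ± 3.12 CPM against 22.7 ± 1.98 in pDC (SD, n = 3), and these 2 groups did not overlap, by a margin under 0.1 CPM. The log2 fold change of pDC against pre-cDC was -0.34 ± 0.21 (adjusted p = 0.23), and over the 4 populations the adjusted p was 0.54. Irak4 shares exon sequence with Twf1 on the other strand, and whether the counting used strand is not given in the sources used here, so that reads of the pair may not be told apart.

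Irak1, the kinase that IRAK4 activates, lies on chromosome X at positions 74013914 to 74023918 of the minus strand. Its level was 58.0, 64.5 and 43.2 CPM in pre-cDC, 63.8, 65.9 and 63.2 in lo-lo, 89.9, 67.8 and 94.2 in lo-hi, and 64.0, 93.8 and 97.6 in pDC. All 3 lo-hi libraries and 2 of the 3 pDC libraries lay above all pre-cDC and lo-lo libraries, and pDC replicate 1 fell among these. The adjusted p over the 4 populations was 0.026. Irak1 was 1.54 times higher in pDC than in pre-cDC, a log2 fold change of 0.62 ± 0.19 that missed the test (adjusted p = 0.013). It passed with the replicate block (adjusted p = 0.0061), with no filter on low counts (0.0073), thinned to the smallest library total (0.0095), and without pDC replicate 1 (0.0020) or pre-cDC replicate 2 (0.0059). Against lo-hi, the pDC value differed by 0.01 ± 0.18 on the log2 scale (adjusted p = 0.998).

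Traf6, the ubiquitin ligase on which the IRAK complex acts, lies on chromosome 2 at positions 101678429 to 101701669 of the plus strand. It was measured at 9.95, 7.93 and 10.1 CPM in pre-cDC, 11.8, 10.6 and 12.1 in lo-lo, 10.2, 12.9 and 11.6 in lo-hi, and 9.54, 8.53 and 13.4 in pDC. The pDC libraries held values near both ends of the range. The log2 fold change of pDC against pre-cDC was 0.12 ± 0.24 (adjusted p = 0.76), and over the 4 populations the adjusted p was 0.74.

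**Figure D2:**
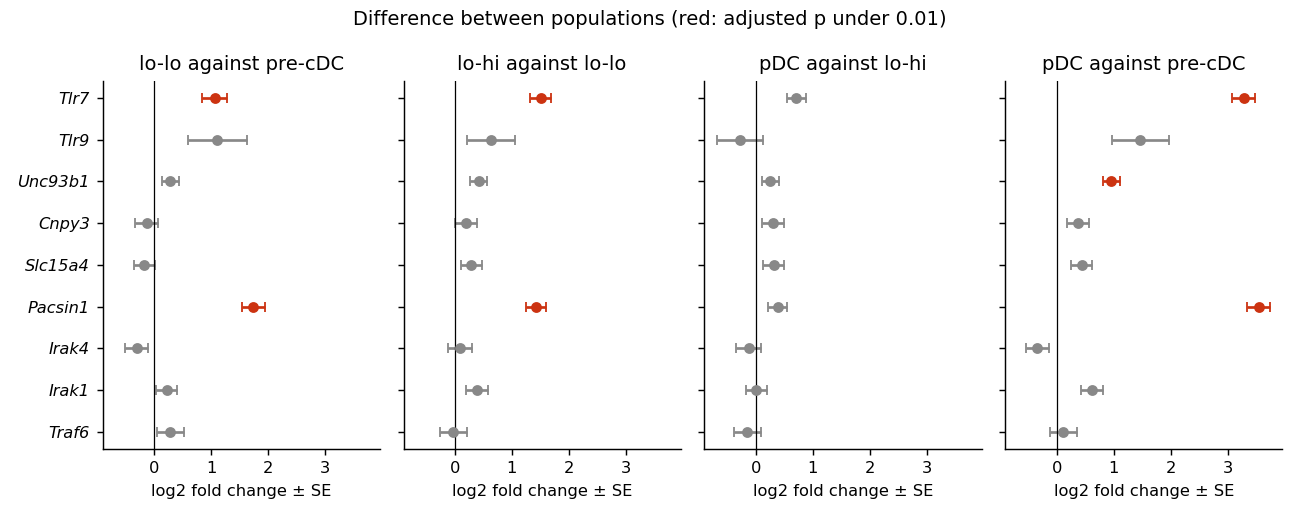
Log2 fold change of the 9 genes (horizontal axes, the same scale in all panels) between neighbouring populations and, at the right, between pDC and pre-cDC. Points are edgeR estimates and whiskers the SE, with red for an adjusted p under 0.01. Tlr7 and Pacsin1 are red in the first 2 steps, no gene is red from lo-hi to pDC, and Unc93b1 is red at the right alone.

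Counted by comparison, 2 of the 9 genes were called higher in lo-lo than in pre-cDC (Tlr7 and Pacsin1), where 1.61% of all genes were. The same 2 were higher in lo-hi than in lo-lo, against 2.33% of all genes. From lo-hi to pDC 0 of the 9 were called higher by edgeR, against 0.118% of all genes. In that last step 2 of the 9 had an unadjusted p under 0.05, and DESeq2 also called 0. The 3 genes Tlr7, Unc93b1 and Pacsin1 were higher in pDC than in pre-cDC, against 11.4% of all genes, in lo-hi than in pre-cDC, against 6.76%, and in pDC than in lo-lo, against 6.71%. None of the 9 was called lower in pDC than in pre-cDC, where 10.4% of all genes were. With 9 genes, 0 calls at that share says little about the set. These comparisons share libraries.

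In 4 of the 9, Tlr7, Tlr9, Unc93b1 and Pacsin1, all 3 pDC libraries were above all 3 pre-cDC libraries, and 21.5% of all genes showed that. The median log2 fold change of the 9 between pDC and pre-cDC was 0.62, beside 0.05 over all genes tested. It was 0.28 beside 0.04 for lo-lo against pre-cDC, 0.39 beside 0.01 for lo-hi against lo-lo, and 0.25 beside 0.03 for pDC against lo-hi. The step from lo-hi to pDC had 147 calls among all genes, 18 of them higher in pDC, the fewest of the 6 comparisons. It had 65 without lo-hi replicate 3, 74 without pDC replicate 2 and 89 without pDC replicate 1.

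The 4 libraries whose label and matched population were the same, 1 per population, have the same group either way. This subset was picked after the data were seen and allows no test. From pre-cDC through lo-lo and lo-hi to pDC, Tlr7 read 9.95, 21.2, 63.1 and 98.1 CPM in them, Pacsin1 17.9, 52.2, 143 and 168, and Unc93b1 415, 452, 581 and 674. All 3 rose at each step in these libraries. Their pDC to pre-cDC ratios were 9.85, 9.40 and 1.63. Cnpy3 had a ratio of 0.945 there, below 1.

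**Figure D3:**
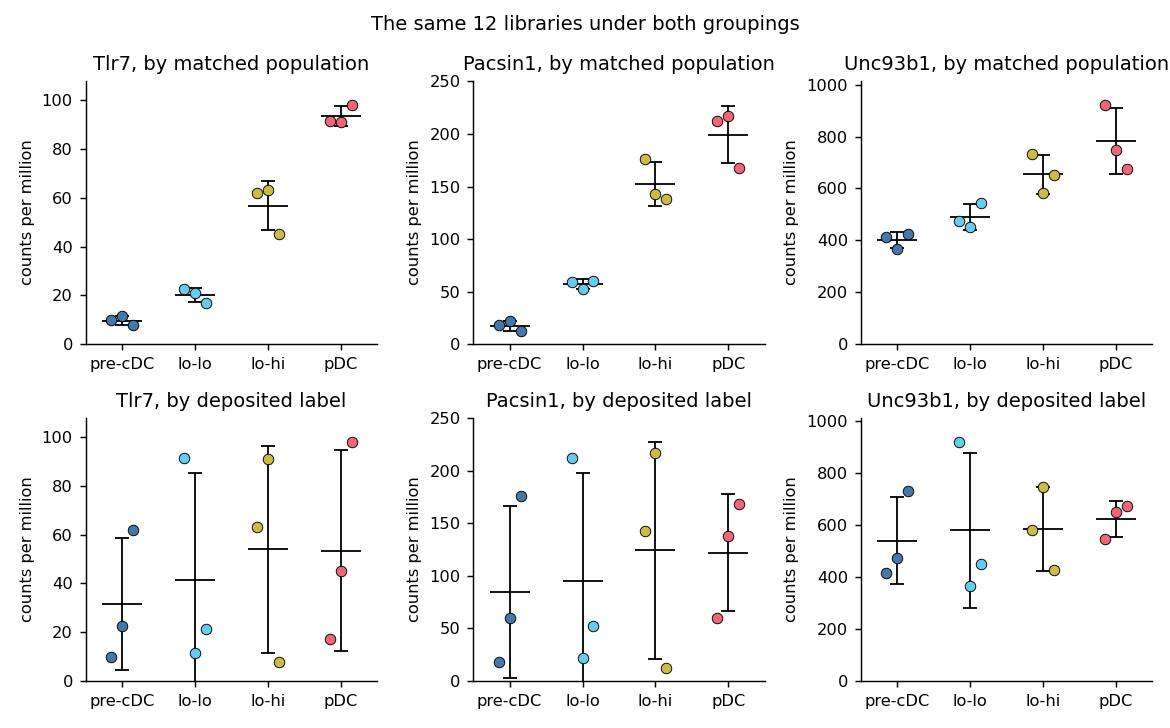
Tlr7, Pacsin1 and Unc93b1 in CPM (vertical axes from 0) in the same 12 libraries, grouped by matched population above and by deposited label below, with 1 point per library, the mean as a bar and the SD as whiskers (n = 3). Above, the means rise in order. Below, each label holds low and high libraries of Tlr7, from 7.77 to 91.0 under the lo-hi label.

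Under the labels, Tlr7 averaged 31.4 ± 27.1 CPM in pre-cDC, 41.3 ± 43.7 in lo-lo, 54.0 ± 42.4 in lo-hi and 53.4 ± 41.2 in pDC (SD, n = 3). Its log2 fold change between the libraries labelled pDC and pre-cDC was 0.75 ± 1.02 and that of Pacsin1 0.52 ± 1.07 (edgeR, adjusted p = 0.9998 for both).

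Among 7824 tested genes with a mean of at least 10 CPM, those most like Tlr7 over the 12 libraries, by Pearson's r of log2(CPM + 1), included Asph (r = 0.998) and Serinc5 (r = 0.994). Serinc5 averaged 5.68 CPM in pre-cDC, 14.8 in lo-lo, 39.0 in lo-hi and 58.4 in pDC. Those nearest to Tlr9 were less alike, Lacc1 (r = 0.908), Ppp1r13b (r = 0.905) and Cdc37l1 (r = 0.898). These libraries fall into populations, and the values are descriptions.

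Other receptors of the family moved in both directions. Of the other endosomal receptors (Tlr3, Tlr8, Tlr11, Tlr12 and Tlr13), 3 of 5 had enough counts to be tested. Of these 1, Tlr12, differed over the 4 populations, against 19.9% of all genes. Tlr12, a receptor for profilin of parasites, was 17.6, 17.4 and 13.2 CPM in pre-cDC, 19.2, 15.4 and 19.4 in lo-lo, 39.3, 35.7 and 28.7 in lo-hi, and 56.4, 53.1 and 52.5 in pDC. It rose 3.38-fold from pre-cDC to pDC, with a log2 fold change of 1.76 ± 0.18 (adjusted p = 3.2e-08), and pre-cDC and lo-lo overlapped. Tlr13, a receptor for bacterial ribosomal RNA, was lower in pDC than in pre-cDC, by a log2 fold change of -2.21 ± 0.64 (adjusted p = 0.0095), at a level of at most 3.22 CPM. Tlr8 had 4 counts and Tlr11 had 10 over all 12 libraries.

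Of 7 receptors of the cell surface and their co-receptors, all tested, 4 differed over the populations. Of these, 3 were lower and 1 was higher in pDC than in pre-cDC. Over all genes 19.9% differed, and 10.4% were lower and 11.4% higher in pDC than in pre-cDC. Tlr2, a receptor for bacterial lipoproteins, was 21.4, 16.9 and 18.9 CPM in pre-cDC and 5.79, 6.63 and 7.38 in pDC, with no overlap and a log2 fold change of -1.57 ± 0.23 (adjusted p = 7.9e-06). Its partner Tlr1 fell by 3.53 on the log2 scale (adjusted p = 0.00013) from at most 4.46 CPM. Cd14, a co-receptor for lipopolysaccharide, fell by 1.96 (adjusted p = 0.00049). Tlr5, the receptor for flagellin, rose by 2.26 ± 0.53 (adjusted p = 0.0016), with 0.878, 1.49 and 0.338 CPM in pre-cDC and 3.75, 3.16 and 6.07 in pDC. The median log2 fold change of the 7 between pDC and pre-cDC was -1.53, and Tlr4, Tlr6 and Ly96 did not pass.

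**Figure D4:**
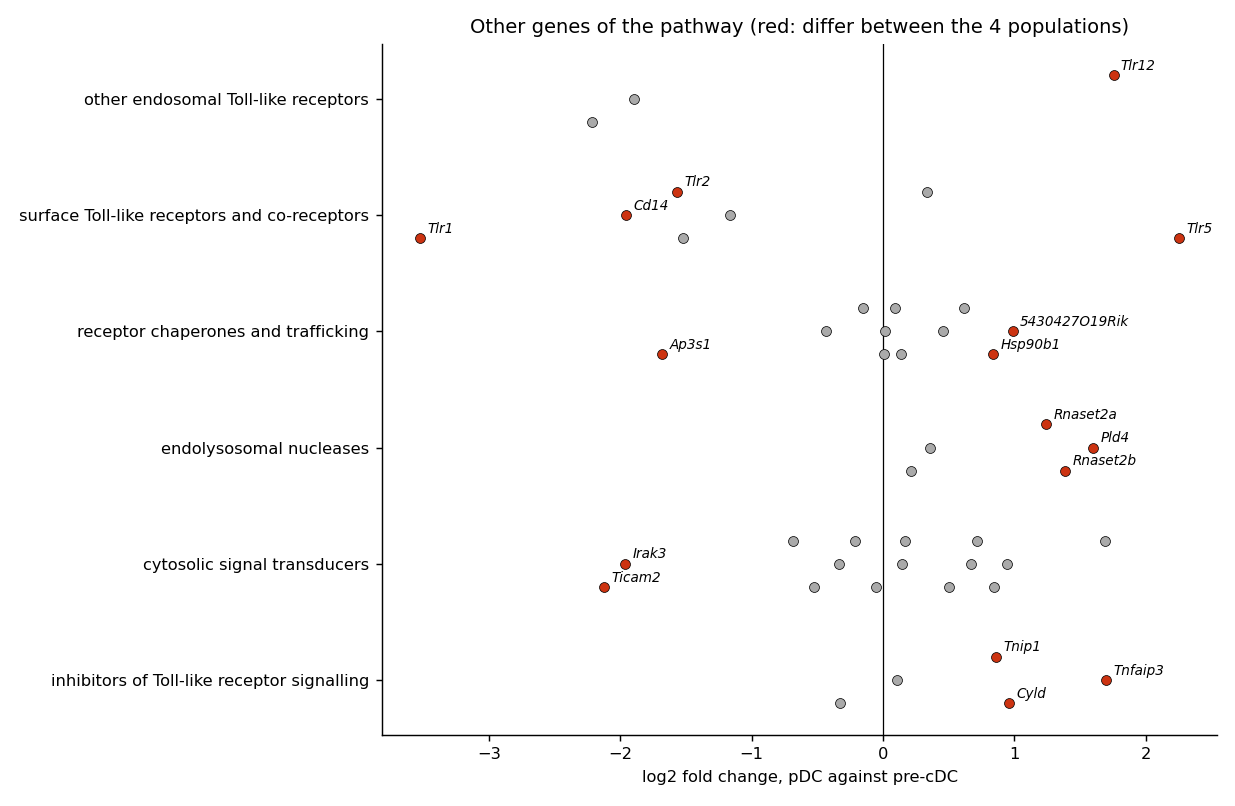
Log2 fold change between pDC and pre-cDC (horizontal axis) of the tested genes of 6 groups of the pathway (rows), with 1 point per gene and red with a name for genes that differed over the 4 populations. Nuclease genes and inhibitors in red stand right of 0, and 3 of the 4 surface receptor genes in red stand left of it.

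Of 11 genes for receptor chaperones and trafficking, 3 differed over the populations, where 19.9% of all genes did, and their median log2 fold change between pDC and pre-cDC was 0.09. Hsp90b1, the endoplasmic reticulum chaperone gp96 that works with CNPY3 on Toll-like receptors, was 615, 578 and 508 CPM in pre-cDC, 870, 1019 and 825 in lo-lo, 1041, 964 and 915 in lo-hi, and 1022, 1089 and 929 in pDC. The pre-cDC libraries were below all the others, and the log2 fold change of pDC against pre-cDC was 0.84 ± 0.14 (adjusted p = 2.9e-05). The gene 5430427O19Rik, the mouse form of the adaptor TASL that SLC15A4 holds at the endolysosome, rose by 0.99 ± 0.19 (adjusted p = 0.00028). Ap3s1, a subunit of the adaptor complex AP-3 of endosomal sorting, fell by 1.68 (adjusted p = 0.00021). Between pDC and pre-cDC, 3 of the 11 were higher, the other being Ap3d1, another AP-3 subunit (0.62 ± 0.17, adjusted p = 0.0077), and 1 was lower.

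Endolysosomal nucleases, which cut the RNA and DNA on which these receptors act, held 3 genes of 5 that differed, all higher in pDC. Over all genes 19.9% differed, and 11.4% were higher in pDC than in pre-cDC. Pld4, a single-stranded exonuclease, was 465, 534 and 492 CPM in pre-cDC, 589, 599 and 556 in lo-lo, 1238, 1129 and 1028 in lo-hi, and 1841, 1433 and 1244 in pDC. No 2 populations overlapped. From pre-cDC to pDC it rose 3.03-fold, with a log2 fold change of 1.60 ± 0.15 (adjusted p = 4.7e-09). The ribonuclease genes Rnaset2a and Rnaset2b rose by 1.24 ± 0.17 (adjusted p = 2.5e-06) and 1.39 ± 0.18 (adjusted p = 6.9e-07). They are near-identical copies whose reads the counting could split, so each value alone is uncertain and the 2 may not count as separate genes. The median of the 5 was 1.24, the value of Rnaset2a itself.

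Among 15 cytosolic signal transducers, 2 differed over the populations, against 19.9% of all genes. Ticam2, the bridging adaptor of TLR4 signalling from endosomes, was 14.9, 15.4 and 19.3 CPM in pre-cDC and 2.55, 3.47 and 6.51 in pDC, without overlap, and fell by 2.12 on the log2 scale (adjusted p = 1.3e-05). Irak3, an inactive kinase that restrains the pathway, fell by 1.96 (adjusted p = 0.00063), from 5.07 to 7.44 CPM in pre-cDC to 1.30 to 2.21 in pDC. The median of the 15 was 0.14. Between pDC and pre-cDC 2 were lower and 1 was higher, Tab3, a subunit of the TAK1 kinase complex (1.69 ± 0.45 on the log2 scale, adjusted p = 0.0047).

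Of 5 inhibitors of the pathway, 3 differed, against 19.9% of all genes. All 3 were higher in pDC than in pre-cDC, against 11.4% of all genes. Tnfaip3, which encodes the ubiquitin-editing enzyme A20, was 4.68, 7.93 and 4.73 CPM in pre-cDC, 8.56, 5.12 and 8.04 in lo-lo, 17.2, 14.5 and 17.1 in lo-hi, and 15.3, 16.1 and 24.3 in pDC. The lo-hi and pDC libraries were all above those of the other populations, and pDC against pre-cDC gave 1.70 ± 0.27 on the log2 scale (adjusted p = 2.4e-05). Tnip1, a partner of A20, rose by 0.86 ± 0.16 (adjusted p = 0.00018), and Cyld, a deubiquitinase, by 0.96 ± 0.18 (adjusted p = 0.00015). The median log2 fold change of the 5 was 0.86.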

How the data were processed

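RNA of 12 sorted samples was measured by bulk SCRB-seq, a 3′ counting method with sample barcodes and molecular identifiers. The authors processed the reads with zUMIs and STAR 2.5.2b against mm10 (GRCm38) with Ensembl gene models and deposited a table of raw counts, whole numbers with 1 column per well. The methods do not state whether these counts are reads or molecules. Symbols and positions were taken from GENCODE vM21 (GRCm38), and 21410 of 21754 identifiers had a symbol.

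The group of each library was the population matched through the study's source data, not the deposited label. The fit by label was run in the same way. Libraries were scaled by TMM. Genes averaging 1 count or more over the libraries (15293, with 6461 left out) entered edgeR 4.0.16 (glmQLFit and glmQLFTest, R 4.3.3), all 12 libraries in 1 fit without covariates, with Benjamini-Hochberg adjustment over all genes tested and a cutoff of 0.01. Fold changes are on the log2 scale, and levels (CPM) are counts scaled to 1000000 by the TMM-adjusted total. The steps were tested on simulated data with known changes.

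The genes and lists were chosen with earlier results of these data known. All 10 genes of the set are named, of each list those called over the 4 populations (at most the 4 with the smallest p), and for Tlr7 and Tlr9 the 3 genes with the highest r, of which 1 is not reported here. Tlr13, Ap3d1, Tab3, Cd79b, Cd209a, Clec9a and Ly6d, chosen after their values were seen, are added. Alternatives were DESeq2 1.42.0 (size factors and test), other filters and cutoffs, a replicate block, thinning to 1801463 counts, only the 6 libraries compared, and leaving out each library.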

Additional observations from a re-analysis of the deposited data

How the results depend on the processing

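Of the 54 log2 fold changes of the 9 genes over 6 comparisons, the 13 called kept their direction under every setting tried with the matched populations and lost the call in 9 of 247 refits, 8 of them with 1 library left out and the other with only the 6 libraries compared (Tlr7, lo-lo against pre-cDC, adjusted p = 0.013). Of the 41 not called, 26 refits of 779 turned the sign and 17 passed the cutoff. For causes not shown by the alternative's own construction, the cause was not tested.

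Grouped by the deposited labels, 0 genes of the set differed, against 3 by matched population, and 0 with the label number as a block. From lo-hi to pDC, 1 gene, Tlr7, was called with no filter on low counts (log2 fold change 0.72), at a cutoff of 0.05 and with the replicate block, against 0. Between pDC and pre-cDC a cutoff of 0.05 gave 5, and between lo-hi and pre-cDC that cutoff and the replicate block gave 5 each, against 3. With only the 6 libraries compared, 1 was called between lo-lo and pre-cDC, against 2. Leaving out 1 library at a time gave 3 to 4 over the 4 populations, 1 to 2 for lo-lo against pre-cDC, 2 to 2 for lo-hi against lo-lo, 0 to 1 for pDC against lo-hi, 3 to 4 for pDC against pre-cDC, 2 to 4 for lo-hi against pre-cDC and 2 to 4 for pDC against lo-lo. Over all genes, a cutoff of 0.05 called 907 for lo-lo against pre-cDC, 1321 for lo-hi against lo-lo, 327 for pDC against lo-hi, 3063 for lo-hi against pre-cDC and 3332 for pDC against lo-lo, where 0.01 called 483, 790, 147, 2001 and 2108. No filter called 733 and 344, and the replicate block 743 and 346, for lo-lo against pre-cDC and pDC against lo-hi, and only the 6 libraries called 1191 for lo-hi against lo-lo. With 1 library left out these ran from 280 to 662 for lo-lo against pre-cDC, 381 to 945 for lo-hi against lo-lo and 65 to 213 for pDC against lo-hi.

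Signs turned only for differences that were not called. Irak1 between pDC and lo-hi was 0.01, and -0.0088 with DESeq2 size factors, -0.0080 with the DESeq2 test and -0.0093 with the replicate block, and ran from -0.12 to 0.18 over the left-out libraries. Thinned to the smallest total, Slc15a4 gave 0.012 for lo-lo against pre-cDC, Traf6 -0.12 for pDC against pre-cDC, Cnpy3 -0.041 for lo-hi against pre-cDC and Irak4 0.041 for pDC against lo-lo. With 1 library left out, Irak4 ran from -0.11 to 0.31 for lo-hi against lo-lo, -0.38 to 0.069 for pDC against lo-hi, -0.44 to 0.013 for lo-hi against pre-cDC and -0.19 to 0.14 for pDC against lo-lo. Traf6 ran from -0.11 to 0.068 for lo-hi against lo-lo and -0.054 to 0.20 for pDC against pre-cDC. Cnpy3 ran from -0.028 to 0.34 for lo-hi against lo-lo and -0.15 to 0.21 for lo-hi against pre-cDC, Slc15a4 from -0.071 to 0.23 for lo-hi against pre-cDC, and Tlr9 from -0.52 to 0.10 for pDC against lo-hi.

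Samples with the same number deviated together from their population means, with a mean correlation of 0.19 (16 of 18 pairs over 0.1, lowest -0.26). Those with another number had a mean correlation of -0.10 (5 of 36 pairs over 0.1, highest 0.40). Not every pair with the same number was over 0.1 and no source ties a number to a mouse. The numbers were therefore not taken as pairs, although the populations came from 3 mice. With the replicate block 4 genes of the set were called over the 4 populations, against 3, and Irak1 between lo-hi and pre-cDC also passed (adjusted p = 0.0086). Depth limits Tlr9, Tlr13, Tlr1 and Tlr5, which had few counts in every library.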
